A study of Mus musculus with 6 samples.

Results

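Mitosis and chromosome segregation genes form a list of 53 genes that carry a cell from mitotic entry through spindle assembly and anaphase to cytokinesis, with kinesins other than Cenpe not included. Members are listed by symbol, with no threshold on their values. Each is represented by the probe set annotated to that symbol alone with the highest mean over all 6 arrays. A probe set was found for 52 of the 53 members, among 18193 genes in all, and Ccnb1 was not analysed here. The RNA came from corticothalamic projection neurons of C57BL/6 mice, called wild type in the labels, at 3 stages with 2 arrays each and no control group. For the E18 arrays, green fluorescent microspheres were injected into the thalamus at E17.5 and cortex was taken at E18.5. For the P3 arrays the days were P1 and P3, and for the P6 arrays P4 and P6, so beads had longer to be carried back before both later collections, and that cannot be told apart from stage. Beads are carried back along axons, and labelled cells were purified by fluorescence-activated cell sorting (FACS). The sources used here do not give whether animals were pooled or whether arrays of 1 stage had separate animals, and p-values therefore rest on the spread between arrays, which may be technical.

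A cell enters mitosis when the kinase Cdk1, bound to a cyclin, is switched on. Condensins then compact the chromosomes, kinetochores attach them to the spindle, and a checkpoint holds anaphase until every chromosome is attached. In the cortex, radial glia and intermediate progenitors divide, whereas projection neurons have left the cell cycle, and transcripts of mitotic genes are widely used as marks of dividing cells. Most of these genes are transcribed in the late part of the cell cycle.

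The members were high at E18 and low at both later stages. Values are log2 expression, and changes are the later stage minus the earlier one. Between E18 and P3, 49 of 52 members fell and 0 rose in the limma fit across all genes, at an adjusted p below 0.05. At an unadjusted p below 0.05, 1 member, Nek2, was higher at P3. In the whole fit 20.0% of genes were called lower and 15.4% higher. The members' median change was -4.94, against 0.09 over all genes tested. Between E18 and P6, 50 members fell and 1, Nek2, rose, where 13.3% of all genes were called lower and 11.6% higher. The median change was then -4.93, against 0.13 over all genes. With the mean of all probe sets per gene in place of 1, the median changes were -3.83 at P3 and -3.60 at P6. Both P3 arrays lay below both E18 arrays for 50 of 52 members, against 35.8% of all genes, and the same count held for the P6 arrays, against 31.0% of all genes. Both later arrays lay above both E18 arrays for the other 2 members, Nek2 and Tpx2, at each stage, against 44.1% of all genes at P3 and 47.1% at P6. The P3 and P6 comparisons use the same E18 arrays, so they are not independent of each other.

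The falls were large. At P3, 37 members had a log2 change of -4 or less, which is a fall of 16-fold or more, as had 178 of all 18193 genes. At P6 the counts were again 37 members, and 158 of all genes. Of the 100 genes with the most negative change, 31 were members at P3 and 35 at P6. The median over members of the stage mean was 11.28 at E18, 6.39 at P3 and 6.32 at P6. At E18 no member read below the lower quartile of the array's probe sets on both arrays, while 10 members did at P3 and 7 at P6. Near that end of an array, background makes up much of the signal, and a fold change there understates the true one.

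**Figure D1:**
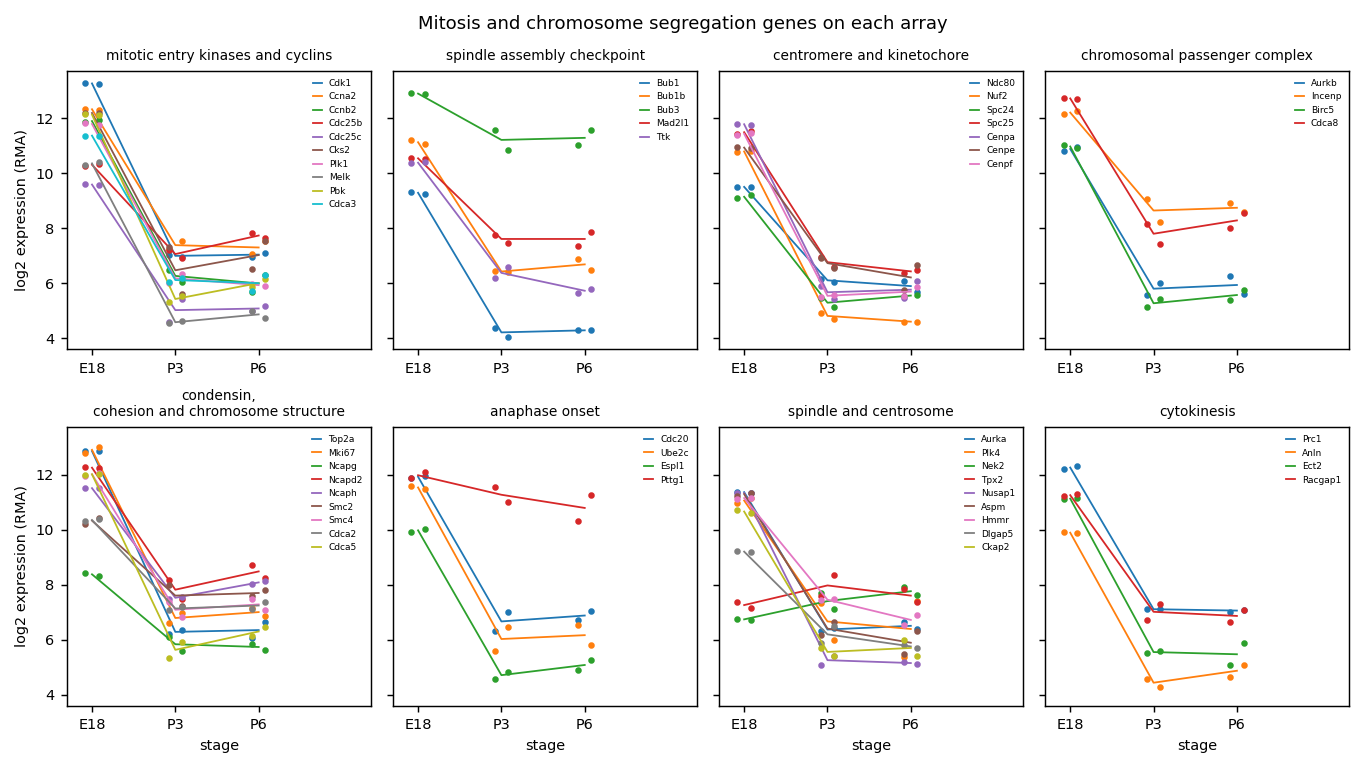
Log2 expression (RMA, y axis) of the 52 members at E18, P3 and P6 (x axis), in 8 panels by role; each point is 1 array and lines join the means of 2 arrays. Most members drop between E18 and P3 and stay at that level at P6, while Bub3 and Pttg1 stay at 10.32 or above on all arrays.

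The spread between the 2 arrays of a stage was small beside these falls. The median difference between the 2 arrays, over the 52 members, was 0.06 at E18, 0.35 at P3 and 0.34 at P6. Over all genes it was 0.07, 0.34 and 0.25 at the same stages. The largest differences among members were 0.22 for Mki67 at E18, 1.71 for Cks2 at P3 and 2.01 for Plk4 at P6. The E18 arrays were alike across the array as a whole, with a correlation of 0.9983 and 0 probe sets more than 2-fold apart. The later pairs were less alike, with a correlation of 0.9609 and 3664 such probe sets at P3, and 0.9761 and 1710 at P6. The limma fit used a single estimate of spread per gene for all stages. With the E18 arrays averaged into 1, 49 members were still called lower in each comparison and 0 higher.

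**Figure D2:**
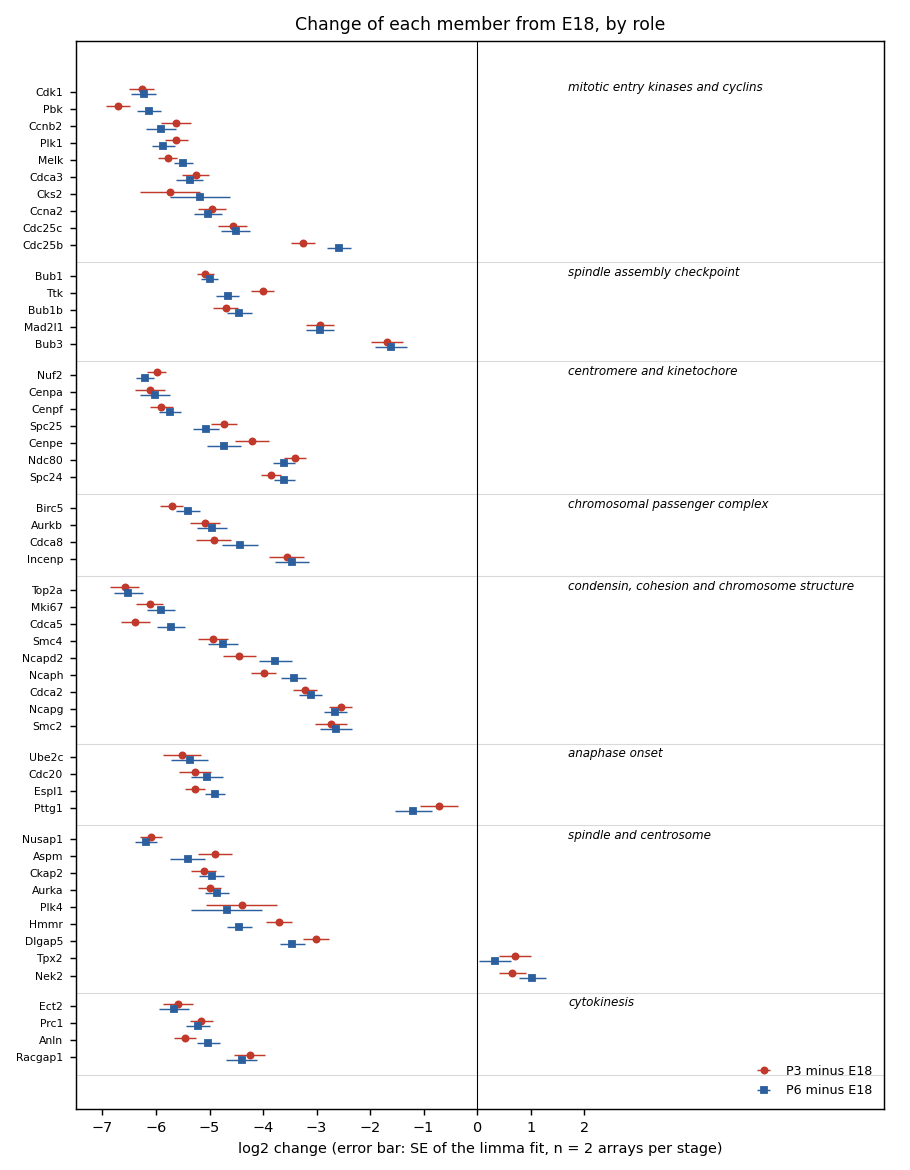
Log2 change (x axis) of each member, in rows grouped by role, for P3 minus E18 (red circles) and P6 minus E18 (blue squares); bars are the standard error of the limma fit, with 2 arrays per stage. All points lie left of 0 except those of Nek2 and Tpx2, and those of Pttg1 and Bub3 lie nearest to 0 among the rest.

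The members' promoters were read for 2 short motifs that are known in promoters of late cell cycle genes. A link between the motifs and the members' falls was not tested. TTTGAA is the core of the cell cycle genes homology region (CHR), which the MuvB complex binds. CCAAT is the core of the box that NF-Y binds. Both strands were searched, in RefSeq promoters of build GRCm38.p6 that run from 250 bases before to 50 bases after the annotated start. The table held 46 promoters of 43 members, and none for Ccna2, Cdc25c, Pbk, Spc24, Aurkb, Incenp, Smc4, Cdca2, Tpx2 and Dlgap5. TTTGAA was present in 32 of 46 member promoters (69.6%, exact 95% interval 54.2 to 82.3), against 17.9% of all 32851 promoters. CCAAT was present in 35 (76.1%, interval 61.2 to 87.4), against 37.4% of all promoters. Both motifs stood in 29 member promoters (63%), against 6.95% of all, and 24 (52.2%) held 2 or more CCAAT, against 11.7%. The intervals cover counting error only, and promoters of 1 gene can share bases. Among 133 promoters of other mitotic genes, the shares were 27.1% for TTTGAA and 48.9% for CCAAT.

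The promoters shown are those of the member with the highest E18 value in the entry, checkpoint, chromosome structure and anaphase roles. The promoter of Nek2, which was called higher at P6 on the probe set used for it, is also shown. They are written 5′ to 3′ on the gene's strand, with matches to CCAAT and TTTGAA on either strand in capitals (ATTGG and TTCAAA are the same motifs on the other strand). Cdk1 lies on the minus strand at chr10:69352863-69353162, Bub3 on the plus strand at chr7:131560120-131560419 and Mki67 on the minus strand at chr7:135716330-135716629. Pttg1 lies on the minus strand at chr11:43425932-43426231 and Nek2 on the plus strand at chr1:191821223-191821522.
Cdk1: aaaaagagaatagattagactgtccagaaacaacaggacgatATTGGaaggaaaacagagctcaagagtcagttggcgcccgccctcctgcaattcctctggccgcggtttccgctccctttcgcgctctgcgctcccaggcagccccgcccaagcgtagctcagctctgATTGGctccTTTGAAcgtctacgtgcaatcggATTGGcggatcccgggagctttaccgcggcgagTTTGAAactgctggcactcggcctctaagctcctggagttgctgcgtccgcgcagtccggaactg
Bub3: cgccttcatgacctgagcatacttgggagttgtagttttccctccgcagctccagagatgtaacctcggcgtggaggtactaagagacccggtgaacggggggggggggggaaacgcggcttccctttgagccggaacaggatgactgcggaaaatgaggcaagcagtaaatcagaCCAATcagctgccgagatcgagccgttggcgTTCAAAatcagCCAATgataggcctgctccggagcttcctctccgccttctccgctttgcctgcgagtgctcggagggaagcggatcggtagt
Mki67: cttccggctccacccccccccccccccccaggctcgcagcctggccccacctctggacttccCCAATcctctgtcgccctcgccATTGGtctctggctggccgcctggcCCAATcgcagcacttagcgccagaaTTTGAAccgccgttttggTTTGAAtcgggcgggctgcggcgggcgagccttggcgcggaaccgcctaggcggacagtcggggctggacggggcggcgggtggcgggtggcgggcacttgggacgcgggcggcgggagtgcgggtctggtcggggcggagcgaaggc
Pttg1: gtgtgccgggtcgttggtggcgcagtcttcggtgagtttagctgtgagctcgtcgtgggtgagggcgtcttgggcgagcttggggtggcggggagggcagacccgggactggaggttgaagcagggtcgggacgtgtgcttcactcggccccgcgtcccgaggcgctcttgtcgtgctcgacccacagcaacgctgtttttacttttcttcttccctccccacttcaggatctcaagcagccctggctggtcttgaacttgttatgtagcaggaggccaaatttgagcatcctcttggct
Nek2: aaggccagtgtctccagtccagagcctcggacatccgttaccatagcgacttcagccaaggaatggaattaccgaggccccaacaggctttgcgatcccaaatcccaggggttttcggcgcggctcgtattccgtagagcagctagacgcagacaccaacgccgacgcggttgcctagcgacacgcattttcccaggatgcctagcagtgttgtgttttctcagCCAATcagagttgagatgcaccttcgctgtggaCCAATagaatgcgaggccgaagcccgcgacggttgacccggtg
The Cdk1 and Mki67 promoters held 3 CCAAT and 2 TTTGAA each. The Bub3 promoter held 2 CCAAT and 1 TTTGAA. The Nek2 promoter held 2 CCAAT and 0 TTTGAA, and the Pttg1 promoter held neither in this window.

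Matches sat at particular distances from the annotated start. TTTGAA was found from 75 bases before to 50 bases after the start in 28 member promoters (60.9%), against 6.3% of all promoters. Its fullest bin of 25 bases was the first after the start, with 11 promoters. CCAAT was most frequent from 75 to 50 bases before the start, in 16 member promoters (34.8%), against 6.99% of all. CCAAT and TTTGAA matches overlapped in 1 member promoter. The 29 tested members with TTTGAA had a median P6 minus E18 change of -5.05 and a range from -6.52 to -1.61. The 13 without it had a median of -4.73 and a range from -6.20 to 1.03, so the ranges of both overlapped widely. In that second set were Nuf2, Nusap1, Bub1 and Birc5, which fell strongly, and Nek2 and Pttg1. Close forms of the CHR core, TTCGAA and TTTAAA, were also searched. Bub1 held 1 TTCGAA and Birc5 1 TTTAAA, while Nuf2, Nusap1, Nek2 and Pttg1 held 0 of either. TTTGAA or a close form stood in 82.6% of member promoters, against 28.8% of all promoters.

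**Figure D3:**
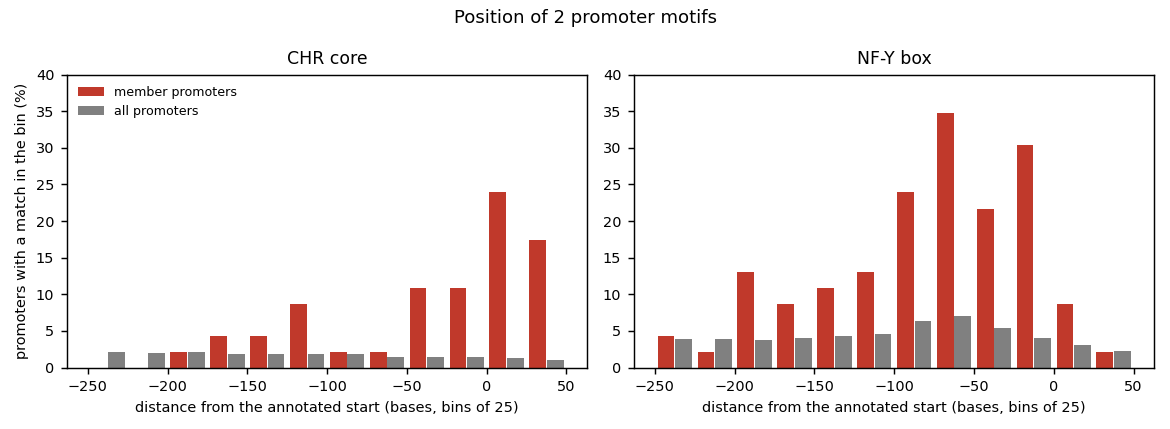
Share of promoters (y axis, percent) with a match to the CHR core (left) or the NF-Y box (right) in bins of 25 bases from the annotated start (x axis), for 46 member promoters (red) and all 32851 promoters (grey). The CHR core reaches 23.9% in the first bin after the start and the NF-Y box 34.8% from 75 to 50 bases before it.

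All 10 measured genes of mitotic entry fell at both later stages. Their median change was -5.63 at P3 and -5.43 at P6, and adjusted p in the limma fit was at most 0.000342 at P3 and 0.000521 at P6. Cdk1, the kinase that drives entry, read 13.28 and 13.27 on the E18 arrays, 7.03 and 6.97 on the P3 arrays and 6.97 and 7.12 on the P6 arrays. Its log2 change was -6.27 ± 0.23 (SE, 2 arrays per stage) at P3 and -6.23 ± 0.23 at P6, a fall of 77.3-fold and 74.9-fold. Ccnb2, one of its B-type cyclins, read 11.86 and 11.95 on the E18 arrays, 6.48 and 6.06 on the P3 arrays and 5.69 and 6.30 on the P6 arrays. Pbk, a mitotic protein kinase, read 12.15 and 12.13 on the E18 arrays, 5.32 and 5.54 on the P3 arrays and 5.87 and 6.15 on the P6 arrays. Its fall of 105-fold at P3 was the largest of any member, and at P6 it was 70.2-fold. Cdc25b, a phosphatase that activates Cdk1, had the smallest falls of the role. It read 10.28 and 10.35 on the E18 arrays, 7.21 and 6.92 on the P3 arrays and 7.82 and 7.66 on the P6 arrays, which was 9.5-fold lower at P3 and 5.97-fold lower at P6. In each of these 4 genes the later arrays lay far below both E18 arrays. The P6 changes of the rest ran from -5.86 for Plk1, a kinase of entry and spindle assembly, to -4.51 for Cdc25c, another Cdk1 phosphatase. Between them lay the kinase Melk (-5.49), the entry factor Cdca3 (-5.37), the Cdk-binding subunit Cks2 (-5.17) and cyclin A2, Ccna2 (-5.03). The P3 arrays of Cks2 read 7.33 and 5.62, and its P3 change was -6.58 without P3 replicate 1 and -4.87 without P3 replicate 2.

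The spindle assembly checkpoint, which delays anaphase while kinetochores are unattached, fell in all 5 measured members, by a median of -4.01 at P3 and -4.44 at P6. Bub1, a checkpoint kinase at kinetochores, read 9.33 and 9.26 on the E18 arrays, 4.37 and 4.06 on the P3 arrays and 4.29 and 4.29 on the P6 arrays. Bub1b, whose protein BubR1 restrains Cdc20, read 11.20 and 11.07 on the E18 arrays, 6.44 and 6.42 on the P3 arrays and 6.88 and 6.50 on the P6 arrays. Ttk, the kinase Mps1 that starts checkpoint signalling, read 10.38 and 10.40 on the E18 arrays, 6.18 and 6.58 on the P3 arrays and 5.65 and 5.81 on the P6 arrays. These 3 genes fell by 16.1-fold or more at P3 and by 21.8-fold or more at P6. Mad2l1, the checkpoint protein Mad2, changed by -2.93 at both stages. Bub3, the partner that brings Bub1 and BubR1 to kinetochores, was the exception in size. It read 12.93 and 12.88 on the E18 arrays, 11.59 and 10.85 on the P3 arrays and 11.02 and 11.57 on the P6 arrays. That was 3.21-fold lower at P3 (adjusted p 0.00563, limma) and 3.06-fold lower at P6 (adjusted p 0.00685), and its mean stayed above 97.5% of probe sets at P3 and 96.7% at P6. Without P6 replicate 1 the P6 change of Bub3 was -1.34 with an adjusted p of 0.0661.

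At the centromere and kinetochore all 7 members fell, by a median of -4.73 at P3 and -5.06 at P6, with adjusted p of at most 0.000105 at either stage. Nuf2, a subunit of the Ndc80 complex that grips microtubules, read 10.77 and 10.83 on the E18 arrays, 4.93 and 4.70 on the P3 arrays and 4.61 and 4.60 on the P6 arrays. The fall was 63.4-fold at P3 and 73.4-fold at P6. The other subunits of that complex also fell, with P6 changes of -5.06 for Spc25, -3.61 for Ndc80 and -3.60 for Spc24. Spc24 had the smallest P6 fall of the role, and Ndc80, at -3.40, the smallest P3 fall. Spc24 read 9.10 and 9.20 on the E18 arrays, 5.46 and 5.13 on the P3 arrays and 5.53 and 5.58 on the P6 arrays. Cenpa, the histone H3 variant that marks centromeres, read 11.81 and 11.77 on the E18 arrays, 5.92 and 5.43 on the P3 arrays and 5.46 and 6.08 on the P6 arrays. Cenpf, a large protein of the outer kinetochore, read 11.40 and 11.48 on the E18 arrays, 5.52 and 5.57 on the P3 arrays and 5.54 and 5.86 on the P6 arrays. Cenpa and Cenpf were 53.5-fold lower or more at both stages. Cenpe, a kinetochore motor, changed by -4.21 at P3 and -4.73 at P6.

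The chromosomal passenger complex corrects faulty attachments and later helps cytokinesis. All 4 measured subunits fell, by a median of -5.00 at P3 and -4.69 at P6. Birc5, survivin, read 11.02 and 10.94 on the E18 arrays, 5.13 and 5.42 on the P3 arrays and 5.40 and 5.75 on the P6 arrays, and was 52.4-fold lower at P3 and 42.4-fold lower at P6. Aurkb, the kinase of the complex, read 10.83 and 10.95 on the E18 arrays, 5.59 and 6.02 on the P3 arrays and 6.28 and 5.60 on the P6 arrays. Cdca8, borealin, read 12.74 and 12.72 on the E18 arrays, 8.17 and 7.44 on the P3 arrays and 8.01 and 8.57 on the P6 arrays. Incenp, the scaffold, had the smallest fall of the complex. Its arrays read 12.16 and 12.27 on the E18 arrays, 9.06 and 8.24 on the P3 arrays and 8.91 and 8.59 on the P6 arrays, which was 11.8-fold lower at P3 (adjusted p 0.00022, limma) and 11-fold lower at P6 (adjusted p 0.000243).

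Genes of chromosome structure and cohesion fell in all 9 members, with medians of -4.44 at P3 and -3.77 at P6. Top2a, the topoisomerase that untangles sister DNA, read 12.87 and 12.85 on the E18 arrays, 6.20 and 6.36 on the P3 arrays and 6.05 and 6.64 on the P6 arrays. It was 95.8-fold lower at P3 and 91.5-fold lower at P6, the largest P6 fall of any member. Mki67, which coats mitotic chromosomes and is the antigen of the Ki-67 proliferation stain, read 12.80 and 13.01 on the E18 arrays, 6.61 and 6.96 on the P3 arrays and 7.14 and 6.86 on the P6 arrays. Cdca5, the cohesin protector sororin, read 11.99 and 12.04 on the E18 arrays, 5.33 and 5.92 on the P3 arrays and 6.13 and 6.46 on the P6 arrays. These 3 genes fell by 52.7-fold or more at each stage. On the probe sets used, the 5 condensin members had P6 changes between -4.74 and -2.64. Smc2, a core ATPase of both condensins, read 10.22 and 10.44 on the E18 arrays, 7.97 and 7.23 on the P3 arrays and 7.58 and 7.81 on the P6 arrays, which was 6.63-fold lower at P3 and 6.22-fold lower at P6. Its partner Smc4 had the largest fall of them on the sets used, -4.74 at P6. The condensin I subunits Ncapd2, Ncaph and Ncapg changed by -3.77, -3.43 and -2.65 at P6. Another Ncapg probe set, 1429171_a_at, was brighter at E18, at 9.75 and 9.93. In a separate fit of every probe set it changed by -5.11 at P6, so the rank of Ncapg depends on the set used. Cdca2, which brings a phosphatase to chromosomes at anaphase, changed by -3.11.

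Of the 4 measured genes of anaphase onset, 3 fell by 29.9-fold or more at each stage and Pttg1 stood apart. Cdc20, which activates the anaphase-promoting complex (APC/C), read 11.88 and 11.97 on the E18 arrays, 6.31 and 7.01 on the P3 arrays and 6.71 and 7.04 on the P6 arrays. Ube2c, a ubiquitin-conjugating enzyme of that complex, read 11.58 and 11.49 on the E18 arrays, 5.60 and 6.44 on the P3 arrays and 6.52 and 5.80 on the P6 arrays. Espl1, the protease separase that cuts cohesin, read 9.93 and 10.02 on the E18 arrays, 4.58 and 4.83 on the P3 arrays and 4.91 and 5.24 on the P6 arrays. Pttg1 encodes securin, the inhibitor that holds separase until anaphase. It read 11.87 and 12.09 on the E18 arrays, 11.55 and 10.99 on the P3 arrays and 10.32 and 11.26 on the P6 arrays. The change was -0.71 ± 0.35 (SE, 2 arrays per stage) at P3, which did not pass the limma test (adjusted p 0.138), and -1.19 ± 0.35 at P6, which did (adjusted p 0.0431). Both later arrays of each stage lay below both E18 arrays. The P6 call was lost without E18 replicate 1 (-1.30, adjusted p 0.126), without E18 replicate 2 (-1.08, 0.22) and without P6 replicate 1 (-0.72, 0.208).

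Spindle and centrosome genes fell in 7 of 9 members at both stages, with a median of -4.40 at P3 and -4.68 at P6. Nusap1, which bundles spindle microtubules at chromosomes, read 11.32 and 11.35 on the E18 arrays, 5.08 and 5.42 on the P3 arrays and 5.18 and 5.11 on the P6 arrays. It was 68-fold lower at P3 and 73-fold lower at P6. Aspm, a spindle pole protein whose loss in humans causes primary microcephaly, read 11.24 and 11.35 on the E18 arrays, 6.17 and 6.63 on the P3 arrays and 5.46 and 6.31 on the P6 arrays. Ckap2, a spindle microtubule protein, read 10.71 and 10.61 on the E18 arrays, 5.68 and 5.42 on the P3 arrays and 5.97 and 5.42 on the P6 arrays. The P6 changes of the other members that fell were -4.86 for the centrosomal kinase Aurka, -4.68 for Plk4, the kinase that starts centriole duplication, -4.44 for the spindle protein Hmmr and -3.45 for Dlgap5, which stabilises kinetochore fibres. Plk4 had the widest error of any member. Its arrays read 10.98 and 11.14 on the E18 arrays, 7.33 and 5.99 on the P3 arrays and 5.38 and 7.39 on the P6 arrays, and the P6 change was -3.67 without P6 replicate 1 and -5.68 without P6 replicate 2.

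Nek2 and Tpx2 gave the only positive changes among the 52 members. Nek2, a kinase that separates centrosomes before mitosis, read 6.75 and 6.72 on the E18 arrays, 7.70 and 7.10 on the P3 arrays and 7.90 and 7.62 on the P6 arrays. The change was 0.66 ± 0.25 (SE, 2 arrays per stage) at P3, which did not pass (adjusted p 0.0733, limma), and 1.03 ± 0.25 at P6, which did (adjusted p 0.0216). The P6 call of Nek2 was lost when any 1 of the E18 or P6 arrays was left out. Its P6 change was 1.04 without E18 replicate 1 and 1.01 without E18 replicate 2. It was 0.89 without P6 replicate 1 and 1.16 without P6 replicate 2. Tpx2, which activates Aurora A and nucleates spindle microtubules, read 7.35 and 7.16 on the E18 arrays, 7.59 and 8.35 on the P3 arrays and 7.84 and 7.36 on the P6 arrays. Its changes of 0.71 at P3 (adjusted p 0.102) and 0.34 at P6 (adjusted p 0.433) did not pass.

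Other probe sets of the same 2 genes moved the opposite way. Nek2 has 4 probe sets, and 1437580_s_at read 9.53 and 9.68 on the E18 arrays, 4.92 and 4.07 on the P3 arrays and 5.33 and 4.83 on the P6 arrays. A further one, 1417299_at, read 8.88 and 8.69 on the E18 arrays, 5.99 and 6.25 on the P3 arrays and 6.37 and 5.76 on the P6 arrays. Both were called lower in a fit over all 34945 probe sets, with P6 changes of -4.53 and -2.72. The Tpx2 probe set 1428104_at read 10.60 and 10.66 on the E18 arrays, 5.25 and 5.07 on the P3 arrays and 5.94 and 5.32 on the P6 arrays, and 1428105_at changed by -4.51 at P6. Those 2 fell at both stages, while 1447518_at, the set used for the gene, and 1447519_x_at, at 0.24, did not pass at P6. The rule of the highest mean over all arrays had thus taken, for both genes, a probe set that was not the highest at E18. With the mean of all probe sets per gene, Nek2 changed by -1.82 at P3 and -1.60 at P6, and Tpx2 by -2.27 and -2.23, and all 4 values passed the limma test.

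**Figure D4:**
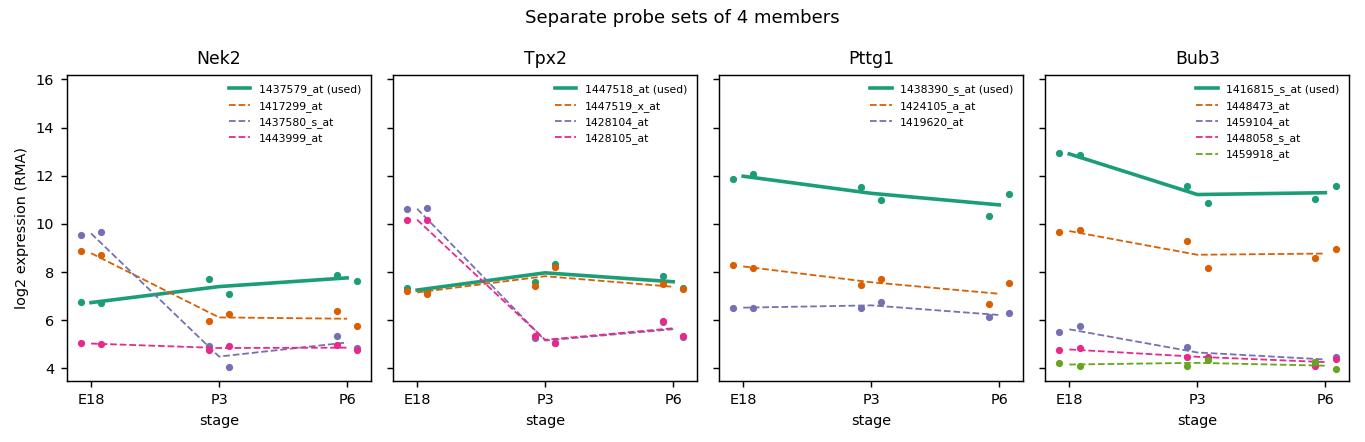
Log2 expression (RMA, y axis) at E18, P3 and P6 (x axis) of every probe set of Nek2, Tpx2, Pttg1 and Bub3; points are arrays, lines join means of 2 arrays, and the thick green line is the probe set used for the gene. In Nek2 and Tpx2 probe sets that start at 8.69 or above at E18 fall to 6.37 or below, while the used one does not.

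Across the 119 probe sets of the 52 members, 94 were called lower and 1 higher at P3, where 17.1% of all probe sets were called lower. At P6 the counts were 97 lower and 1 higher, which was the Nek2 probe set 1437579_at, where 12.4% of all probe sets were called lower. The 1 higher at P3 was 1427724_at of Top2a, which changed by 0.87, while the probe set used for Top2a changed by -6.58 in the same fit. At P6 every one of the 52 members had at least 1 probe set called lower, and at P3 51 did, the exception being Pttg1. Of the 36 members with more than 1 probe set, 20 had all of them called lower at P6 and 31 had all of them negative. Genes with several probe sets have more chances of at least 1 call. The shares of all genes that go with these counts per gene were not worked out. Of the 22 probe sets not called lower at P6, 18 never read above 8 on any array. The probe set used for Pttg1 did not pass in this fit (adjusted p 0.0583), and its probe set 1424105_a_at did, at -1.13 (adjusted p 0.047). Bub3 had a second probe set, 1448473_at, at -0.94, which did not pass (adjusted p 0.138). In Affymetrix naming, probe sets that end in _s_at or _x_at hold probes that can match several transcripts, so for Bub3, Pttg1, Plk4, Pbk, Prc1, Cdca8, Aurkb, Incenp, Ncaph and Cdc20 signal from related transcripts cannot be told apart on the set used.

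Cytokinesis genes fell in all 4 members, with medians of -5.30 at P3 and -5.11 at P6 and adjusted p of at most 5.92e-05 in the limma fit. Ect2, the exchange factor that switches on RhoA at the cell equator, read 11.10 and 11.16 on the E18 arrays, 5.52 and 5.57 on the P3 arrays and 5.06 and 5.87 on the P6 arrays. It was 47.8-fold lower at P3 and 50.7-fold lower at P6. Prc1, which bundles the central spindle, read 12.22 and 12.30 on the E18 arrays, 7.11 and 7.10 on the P3 arrays and 7.02 and 7.09 on the P6 arrays. Anln, anillin of the contractile ring, read 9.91 and 9.87 on the E18 arrays, 4.58 and 4.28 on the P3 arrays and 4.65 and 5.08 on the P6 arrays. Racgap1, which recruits Ect2 to the midzone, had the smallest fall. It read 11.23 and 11.28 on the E18 arrays, 6.72 and 7.30 on the P3 arrays and 6.63 and 7.09 on the P6 arrays, which was 19-fold lower at P3 and 21.1-fold lower at P6.

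Between P3 and P6 no member was called. Nor was any gene of the fit, so 0.00% of genes were called in either direction, and at an unadjusted p below 0.05 there were 6 members of 52 and 3224 genes of 18193. The members' median change was 0.08, against 0.07 over all genes, and the range was -0.73 to 0.67. Standard errors of these changes ran from 0.16 to 0.66, so a change of this size could not be told from the spread between arrays for most members. P6 and P3 arrays overlapped for 35 of 52 members, both P6 arrays were lower for 7 and both were higher for 10. Over all genes, 16.7% had both P6 arrays below both P3 arrays and 25.2% had both above.

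Hmmr had the smallest p of the members in that comparison. It read 6.53 and 6.90 at P6, against 7.44 and 7.46 at P3, a change of -0.73 ± 0.24 (SE, 2 arrays per stage; unadjusted p 0.0155, limma adjusted p 0.194). Ttk read 5.65 and 5.81 at P6, against 6.18 and 6.58 at P3, with an adjusted p of 0.205. In the other direction, Cdc25b changed by 0.67 (adjusted p 0.212), Pbk by 0.58 (0.243) and Cdca5 by 0.67 (0.261). In each of these 5 genes the arrays of the stages did not overlap, and none passed the adjustment. Without P3 replicate 1, 4 members passed in the limma fit. They were Cdc25b (0.82, adjusted p 0.0341) and Ncapd2 (1.01, 0.0446), which were higher at P6, and Dlgap5 (-0.77, 0.0331) and Ttk (-0.85, 0.0302), which were lower. The same fit called 3158 genes higher and 944 lower in all, so the count of 0 between P3 and P6 rested on that array being included.

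**Figure D5:**
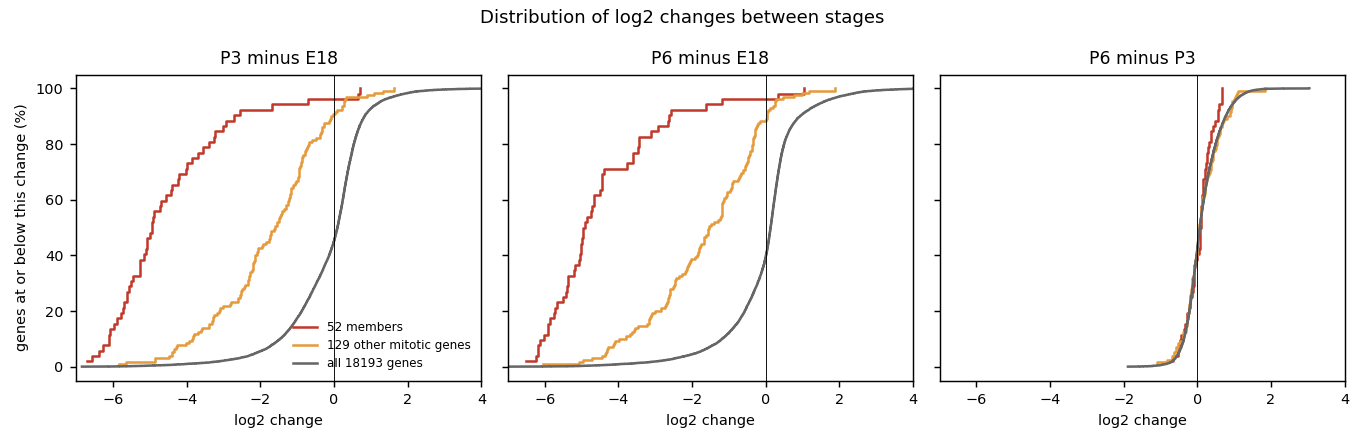
Cumulative share of genes (y axis, percent) at or below each log2 change (x axis) for P3 minus E18, P6 minus E18 and P6 minus P3; red, 52 members; orange, 129 other mitotic genes; grey, all 18193 genes. The members' medians of -4.94 and -4.93 lie left of the other mitotic genes' -1.59 and -1.53 and of all genes' 0.09 and 0.13, and the 3 curves nearly coincide for P6 minus P3.

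Other genes of the mitotic machinery were tested in the same fit. Over all genes, 20.0% were called lower and 15.4% higher at P3, and 13.3% lower and 11.6% higher at P6. Of 129 such genes, 93 were lower and 3 higher at P3, with a median of -1.59, and 79 were lower and 3 higher at P6, with a median of -1.53. No test of the difference between lists was made. The APC/C, whose activator Cdc20 is a member, had 10 of 16 genes lower at P3, with a median of -0.93, and 4 of 16 lower at P6, with a median of -0.65. Fbxo5, the APC/C inhibitor Emi1, led it at -5.07, and the core subunit Anapc10 changed by -1.20. Of cohesin and its regulators, 8 of 14 fell at P3 and 9 at P6, most of all the centromere protectors Sgo1 (-4.44) and Sgo2a (-4.34). All 3 condensin II genes fell, with Ncapg2 at -3.56 and Ncapd3 at -2.09. Of 29 other kinetochore genes, 26 fell and 1 rose at P3, and 23 fell and 1 rose at P6, with a median of -2.60. Cenpl of the centromere network (-4.72) and the dynein adaptor Spdl1 (-4.38) fell most, and Nsl1, a subunit of the Mis12 complex, rose by 1.18. The checkpoint list held 1 call among 3 genes, Trip13 (-2.70), an ATPase that remodels Mad2.

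Among 20 further entry genes 14 fell and 1 rose at P3, and 13 fell and 1 rose at P6. Wee1, the kinase that restrains Cdk1, changed by -3.23 and Ccnf, cyclin F, by -3.10. Ensa, an inhibitor of the phosphatase PP2A, rose by 1.88. Of 34 further centrosome and spindle genes 26 fell and 1 rose at P3, and 23 fell and 1 rose at P6, with Spag5 (-4.96) and Nde1 (-4.30) falling most and Nin, the centrosomal anchor ninein, called higher. Cytokinesis had 5 of 10 genes lower at P3 and 3 at P6, against 20.0% and 13.3% of all genes. Cep55, which organises the last cut between daughter cells, read 10.92 and 10.99 on the E18 arrays, 5.10 and 5.11 on the P3 arrays and 4.92 and 4.90 on the P6 arrays, and its change of -6.05 lay within the members' range. Cdk5, its activators and other Cdk-type kinases that act outside the division cycle were listed apart. Of 8 tested, 2 rose at P3, against 15.4% of all genes, and 1, Cdk14, fell (-1.25, limma adjusted p 0.0353). At P6, 4 rose, against 11.6% of all genes, and 0 fell in the limma fit, with no further gene at an unadjusted p below 0.05. The 4 were led by Cdkl2 (4.21) and by Cdk5r2, an activator of Cdk5 in neurons (1.83).

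Most markers of cortical progenitors moved with the members. Of 12 radial glia and progenitor markers, 10 fell in each comparison, with a median P6 change of -4.34. Pax6 changed by 0.66 at P3 and 0.72 at P6, and Nes by 0.07 and -0.52, and neither was called. These values rest on 1 of 5 probe sets for Pax6 and 1 of 3 for Nes. The Pax6 set read only 5.92 and 5.79 on the E18 arrays, so a fall of that gene may be missed. The summed signal of the 12 markers on the linear scale was 48051 to 48208 at E18, 2376 to 3561 at P3 and 2506 to 3390 at P6. All 6 intermediate progenitor markers fell, and their summed signal was 11542 to 11669 at E18, 531 to 679 at P3 and 595 to 716 at P6. No marker can be called absent on these arrays, since no detection call was used. All 10 corticothalamic and layer 6 markers rose, with a mean log2 value of 8.13 to 8.21 at E18, 10.09 to 10.60 at P3 and 10.55 to 10.78 at P6, and 7 of 8 general neuron markers rose. In bulk RNA, fewer cells of a type and less RNA per cell cannot be told apart, and the part of progenitor RNA in the members' falls was not tested.

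Markers of other cells moved less evenly. Oligodendrocyte precursor markers fell in 3 of 6 at P3 and in 1 of 6 at P6, with median changes of -0.43 and 0.03. Of all genes, 20.0% were called lower at P3 and 13.3% at P6. Microglia and macrophage markers averaged 8.96 and 8.97 on the E18 arrays, 6.44 and 7.25 on the P3 arrays and 6.98 and 8.59 on the P6 arrays. P6 replicate 2 thus lay near the E18 arrays for those markers, while the members' mean was 6.49 and 6.67 on the P6 arrays. At P3, 7 of 10 of these markers fell and at P6 0 did in the limma fit, with 5 at an unadjusted p below 0.05. Astrocyte markers fell in 3 of 6, interneuron markers in 3 of 8, and those of endothelium and pericytes in 5 of 8 at P6. The astrocyte markers that fell did so strongly at P3, with Aldoc at -5.95, Aldh1l1 at -5.30 and Apoe at -4.72. Aqp4, Gfap and S100b were not called. The summed signal of the astrocyte markers was 15414 to 15683 at E18, 623 to 800 at P3 and 1341 to 2825 at P6. Measures of array quality also differed by stage. Hybridization controls averaged 9.25 to 9.59 at E18, 11.59 to 11.72 at P3 and 9.85 to 13.01 at P6, and the 3′ minus 5′ difference of Actb was 0.56 to 0.58, 1.19 to 1.76 and 0.82 to 1.06. With the hybridization level as a covariate, 47 members were lower at P3 and 48 at P6, and Bub3 was among those lost at both. The part of these other cells and of RNA quality in the members' values was not tested.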

How the data were processed

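RNA was measured on 6 Affymetrix arrays, with 2 per stage. The deposited log2 values per probe set came from RMA, which the authors ran according to the submitters' processing notes. The sources used here do not give its version or whether arrays were processed together. Values were kept as deposited, with no pseudocount. Of 45101 probe sets, 34945 had 1 gene symbol, 932 several, 9160 none and 64 were controls. The gene IDs of 34741 were found in the RefSeq table, and 0 symbols were updated. The highest-mean probe set stood for each of 18193 genes, with no filter on dim genes. At the floor of the values a fold change is compressed.

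Stage means were fitted on all 6 arrays with limma 3.58.1 (R 4.3.3), with an intensity trend and 3 residual degrees of freedom, and tested on simulated data. Tests were 2-sided, with Benjamini-Hochberg adjustment over all genes and calls at an adjusted p below 0.05. The number of arrays limits the precision.

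Members and lists were chosen with earlier results of these data known. Per role, values are given for the 3 members with the largest absolute P6 minus E18 change, the 1 with the smallest and any not called lower; for P6 minus P3, the 5 with the smallest p; per other list, the 2 called genes furthest in each direction. The result of 1 gene of the cytokinesis list is not reported here. Other members are given by their change, except that array values of Cks2 and Plk4, and changes of Ncapd2 and Dlgap5 without 1 array, and Cdk14, were added after their values were seen. The fit per probe set was added after the data were seen.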

Additional observations from a re-analysis of the deposited data

How the results depend on the processing

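Precision was limited by 2 arrays per stage. No alternative turned a member's median fall, which without any 1 array ran from -4.97 to -4.93 at P3 and from -5.01 to -4.80 at P6. The mean of all probe sets moved it most, to -3.83 and -3.60. Quantile normalization, array weights and the fit of only the stages compared lost no member call. Leaving out the lowest 25% or 50% of genes lost none among the 51 and 37 members then tested. That filter used the mean over all 6 arrays, which the E18 values raise for most members. It kept members through the stage where they were high, so it is no independent check of their calls. The P6 call of Pttg1 was lost without the trend (adjusted p 0.0516), and with the E18 arrays averaged those of Pttg1 and Nek2 were lost (0.169 and 0.145). With the hybridization covariate the calls of Bub3 (-1.32, adjusted p 0.109) and Plk4 (-3.02, 0.0539) were lost at P3, and those of Bub3 (-1.29, 0.11), Pttg1 (-0.61, 0.368) and Nek2 (0.83, 0.187) at P6. With the probe set highest at P3 and P6, Cdca3 changed by 0.28 at P3 and -0.06 at P6. With the mean of all probe sets Nek2 changed by -1.82 and -1.60 and Tpx2 by -2.27 and -2.23. In that setting, with E18 averaged and with the covariate, 0 members were higher at P6. With the lowest 50% of genes left out the count was also 0, but Nek2 was then not among the members tested. For all genes, E18 averaged gave 1717 lower and 661 higher at P3, and 1374 and 960 at P6. The covariate gave 1489 and 819, and 1333 and 1169. Array weights gave 3455 higher at P6, and the 50% filter, which tests fewer genes, 1284 higher at P3. Of 137 other mitotic and Cdk5-type genes (main counts 94 lower and 5 higher at P3, 79 and 7 at P6), the 50% filter left 62 lower at P3 and 51 at P6, the covariate 57 lower and 2 higher at P3 and 4 higher at P6, E18 averaged 1 higher at P3 and 3 at P6, quantile normalization 9 higher at P3, and the mean of all probe sets 4 higher at P6. Leaving out 1 array gave 1685 to 5424 genes lower and 658 to 4002 higher at P3, 1347 to 3407 and 965 to 3127 at P6, and 0 to 944 and 0 to 3158 for P6 minus P3. Of the members it gave 49 lower at P3, 48 to 50 lower at P6, 0 to 1 higher at each, and 0 to 2 in each direction for P6 minus P3. Tpx2 rose at P3 without P3 replicate 1 (1.09, adjusted p 0.0216) and Nek2 without P3 replicate 2 (0.96, 0.021). Of the other mitotic genes it gave 2 to 7 higher at P3, 3 to 9 higher at P6, and 0 to 5 lower and 0 to 26 higher for P6 minus P3. TTTGAA stood in 37% of member promoters when only 200 bases before the start were read, against 12.5% of all. The same-numbered arrays of different stages did not deviate together (correlations -0.192, 0.043 and -0.179), and with the replicate block 49 members were lower at P3 and 50 at P6. Apart from those named, causes were not tested.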
